A study of Mus musculus with 16 samples.

Results

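The genes described here are those of the mouse major histocompatibility complex (MHC), whose symbols start with H2-, together with the partners and regulators of antigen presentation B2m, Tap1, Tap2, Tapbp, Psmb8, Psmb9, Psmb10, Nlrc5, Ciita and Cd74. They were taken by symbol from a deposited expression table and made up 32 of its 20581 genes, namely 23 H2- genes and 9 of the 10 named genes. Ciita, the master regulator of class II genes, is not analysed here. On the class I side stood 18 heavy chain genes, 1 pseudogene (H2-T11-ps), 4 partners (B2m, Tap1, Tap2 and Tapbp), 3 immunoproteasome subunits (Psmb8, Psmb9 and Psmb10) and the regulator Nlrc5. The 18 were grouped by symbol. Among them, H2-Q5 and H2-T10 are annotated in GENCODE M21 as polymorphic pseudogenes, and H2-K2 had no match there. The class II side held 4 genes (H2-Ab1, H2-Eb1, H2-DMa and H2-DMb1) and Cd74.

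Nearly all nucleated cells show peptides from their own cytosol on class I molecules. The proteasome cuts the peptides, the TAP transporter carries them into the endoplasmic reticulum, tapasin helps to load them, and each class I heavy chain leaves for the surface bound to beta-2-microglobulin. Class II molecules carry peptides from the endosomal route and are mainly made by dendritic cells, macrophages and B cells; the invariant chain (Cd74) and DM guide their loading. In vascular smooth muscle cells, class I is present at rest, and class II is known mostly as a response to interferon gamma.

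RNA was sequenced from primary smooth muscle cells grown from the aorta of C57BL/6J mice in 16 libraries, 4 in each of 4 groups. KO cells came from RBC.ARG1-KO mice, in which ErCre (Cre recombinase under the erythropoietin receptor gene) acts on ARG1 flox/flox alleles in the red blood cell lineage, and WT cells came from RBC.ARG1-WT littermates. The Cre is thus not aimed at the smooth muscle cells that were sequenced, and whether the littermates carried Cre or the floxed alleles is not stated, nor is the age of the mice. Control cultures of both genotypes stayed in DMEM with 10% fetal bovine serum. The others spent 10 days in DIAM, a foam cell medium that adds L-ascorbic acid (50 µg/mL), insulin (1 µM) and dexamethasone (0.1 µM) to DMEM, and whose serum content is not given. The design text counts 4 biological replicates and the library protocol triplicates. Neither says whether each library stems from its own mouse, so p-values measure the spread between these libraries.

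Library totals ran from 37221192 to 47626331 estimated counts. All 16 libraries are labelled male, yet Xist, the RNA that silences an X chromosome in female cells, was at 102 to 326 CPM in every one of them, which goes against the label. Arg1, the gene deleted in the red blood cell lineage, was too low to test. In DMEM it had 3, 4, 3 and 3 counts in WT libraries and 12, 22, 2 and 49 in libraries labelled KO, so that it was higher in 3 of the 4 KO libraries, and in DIAM it had 1, 9, 0 and 5 and 3, 4, 2 and 1 counts. Smooth muscle genes were present in every library, with summed levels over 8 markers of 2289 to 3989 CPM in DMEM and 1046 to 2091 CPM in DIAM. Markers of other cells were also present. The 16 macrophage and dendritic markers found in the table summed to 1008 to 2857 CPM in DMEM and 1167 to 2017 CPM in DIAM, with none of them at 0 in a whole group. In bulk RNA, fewer cells of a type and less RNA per cell cannot be told apart.

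Sequence before the start sites is shown for 3 heavy chain genes and B2m, which rose in DIAM, for Tap1, which fell and shares its window with Psmb9, and for the class II helper H2-DMb1, which fell. RefSeq promoter windows of build GRCm38.p6, 250 bases before to 50 bases after a start, matched 19 of the 32 genes and gave 21 windows. Each line below prints the 250 bases before the start, 5′ to 3′ on the gene's strand. They cover chr17:35262844-35263093 (+ strand) for H2-D1, chr17:34000348-34000597 (- strand) for H2-K1 and chr17:35438905-35439154 (+ strand) for H2-Q7. B2m is shown over chr2:122147437-122147686, Tap1 over chr17:34187306-34187555 and H2-DMb1 over chr17:34152941-34153190, each on the + strand. Capitals mark the kappa B letters GGGATTCCC and an interferon response core, TTTCNNTTC, each searched on both strands.
H2-D1: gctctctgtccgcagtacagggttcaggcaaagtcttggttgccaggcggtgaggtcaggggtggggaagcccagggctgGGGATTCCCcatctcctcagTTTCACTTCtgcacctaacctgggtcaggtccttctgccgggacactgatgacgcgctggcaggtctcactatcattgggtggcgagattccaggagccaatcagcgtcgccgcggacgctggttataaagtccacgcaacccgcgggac
H2-K1: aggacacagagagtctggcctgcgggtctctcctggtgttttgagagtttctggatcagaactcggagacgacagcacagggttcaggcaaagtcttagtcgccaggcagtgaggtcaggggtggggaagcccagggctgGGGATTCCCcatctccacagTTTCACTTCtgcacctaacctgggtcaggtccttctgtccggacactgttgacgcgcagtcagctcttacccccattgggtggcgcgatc
H2-Q7: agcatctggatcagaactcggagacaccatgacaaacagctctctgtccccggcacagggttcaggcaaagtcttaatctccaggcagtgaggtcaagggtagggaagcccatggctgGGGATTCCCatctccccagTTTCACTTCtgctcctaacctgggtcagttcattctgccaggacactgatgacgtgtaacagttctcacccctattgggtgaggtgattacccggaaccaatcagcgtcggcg
B2m: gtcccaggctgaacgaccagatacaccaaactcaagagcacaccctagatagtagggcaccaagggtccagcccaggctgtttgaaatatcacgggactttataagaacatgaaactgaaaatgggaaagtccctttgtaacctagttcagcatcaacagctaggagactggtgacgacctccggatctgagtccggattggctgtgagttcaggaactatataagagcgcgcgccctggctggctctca
Tap1: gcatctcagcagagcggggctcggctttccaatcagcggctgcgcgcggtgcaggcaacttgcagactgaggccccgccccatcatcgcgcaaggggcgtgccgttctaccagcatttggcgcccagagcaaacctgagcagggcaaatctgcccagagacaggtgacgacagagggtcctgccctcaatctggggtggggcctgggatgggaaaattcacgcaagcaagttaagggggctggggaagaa
H2-DMb1: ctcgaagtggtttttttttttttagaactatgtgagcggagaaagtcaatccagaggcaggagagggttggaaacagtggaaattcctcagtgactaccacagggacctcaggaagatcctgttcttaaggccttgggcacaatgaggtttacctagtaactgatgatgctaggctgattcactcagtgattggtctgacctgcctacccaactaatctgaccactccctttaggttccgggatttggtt

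In H2-D1 the kappa B letters stood at bases -170 to -162 from the start and the interferon response core at -150 to -142; in H2-K1 the same pair stood at -110 to -102 and -90 to -82. The kappa B letters were in 5 of the 21 windows (both of H2-K1, H2-D1, H2-Q6 and H2-Q7), against 0.353% of all 32851 RefSeq windows of this length. TTTCNNTTC, a motif chosen after the windows had been seen, was in 8 of the 21 (also in H2-Q4, H2-Q10 and H2-M3) and in 7.52% of all. The 2 motifs did not overlap in the printed windows. Neither run of letters was in the window of B2m, Tap1 or H2-DMb1, which therefore carry no capitals. For these 2 elements, only these exact letters were searched. A CRE-like core, TGACG, was in 10 of the 21 windows and in 20.8% of all. An inverted CCAAT box, ATTGG, was in 16 of the 21 and in 37.4% of all. Both were in the windows of B2m and Tap1, and the CCAAT box in that of H2-DMb1. They are not marked by capitals. A window without capitals may hold kappa B or interferon response elements of other letters, which were not searched. The core of the glucocorticoid response element, ACANNNTGT, was in none of the 21 and in 6.85% of all. At that share, few of the 21 would hold it in any case, and sites outside these windows were not searched. Its absence therefore decides nothing about glucocorticoid control. Class I windows are related copies and not independent, and a match of letters is a description, not a bound site.

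The first question was what DIAM does to these genes, and in WT cells it raised most of the class I genes that could be tested. Of the 32 genes, 22 reached 1 CPM in at least 4 libraries and were tested; H2-K2, H2-Q1, H2-Q6 and H2-Q7 passed only through libraries in DIAM, so that a rise in them is partly set by the filter. In edgeR's quasi-likelihood test, 15 of the 22 were higher in DIAM than in DMEM, beside 27.6% of all genes tested. Lower were 3, beside 27.5% of all genes, and 4 were not called. The median log2 fold change was 0.55 over the 22 genes and -0.01 over all genes. By role, 10 of 11 heavy chains, 1 of 4 partners (B2m) and 3 of 3 immunoproteasome subunits rose. The 10 heavy chains include the 4 that passed only through DIAM. With a filter at 5 CPM, which those 4 did not reach, 10 of 14 genes were higher, beside 3358 of all 11336. Nlrc5 passed that stricter filter mostly through DIAM libraries. The 2 groups did not overlap for 15 of the 22, beside 49.0% of all genes.

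In KO cells the same change of medium raised 10 of the 22, beside 29.8% of all genes tested. It lowered 2, beside 30.8% of all genes, and left 10 without a call. The median log2 fold change was 0.25 over the 22 and -0.02 over all genes, and the groups did not overlap for 12, beside 55.1% of all genes. The 10 were 9 of the 11 heavy chains and B2m. Among them were H2-Q1, H2-Q6 and H2-Q7, whose rise is partly set by the filter. With a filter at 5 CPM, 7 of 14 genes were higher, beside 3599 of all 11336. All 10 genes that rose and both that fell in KO cells did so in WT cells too. The 5 genes that rose past the threshold in WT cells alone were H2-K2, Nlrc5, Psmb8, Psmb9 and Psmb10; whether their change differed between genotypes was tested with the interaction term, given further on.

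**Figure D1:**
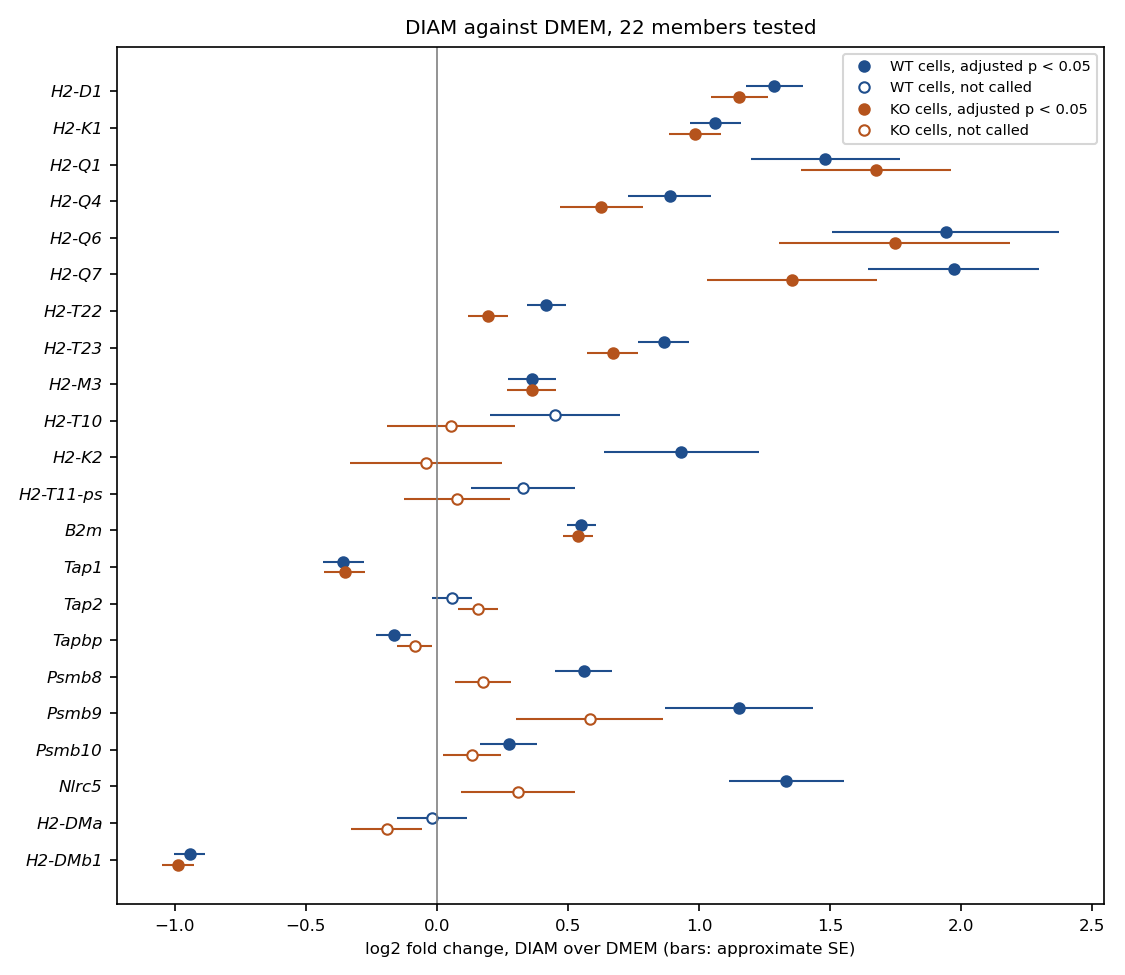
Log2 fold change from DMEM to DIAM (x axis) for the 22 genes tested (y axis), in WT cells (blue) and KO cells (orange), with approximate SE as bars and filled points for an adjusted p under 0.05. B2m and the heavy chains, except H2-K2 in KO cells at -0.04, lie right of 0 in both genotypes, Tap1 and H2-DMb1 left of it, and Nlrc5 and the immunoproteasome subunits further right in WT cells than in KO cells.

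The classical heavy chains H2-D1 and H2-K1, which present peptides to CD8 T cells, about doubled in both genotypes. H2-D1 was at 177, 184, 158 and 225 CPM in WT libraries 1 to 4 in DMEM and at 430.5, 472, 432 and 483 CPM in WT libraries in DIAM. In KO cells it was at 182, 237, 172 and 223 CPM in DMEM and 420.5, 458, 452 and 483 CPM in DIAM. Every DIAM library lay far above every DMEM library. The rise was 2.44-fold in WT cells, a log2 fold change of 1.29 ± 0.11 (SE, adjusted p = 5.61e-08). In KO cells it was 2.23-fold, or 1.15 ± 0.11 (SE, adjusted p = 1.54e-07) on the log2 scale.

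H2-K1 moved alongside it. Its level went from 112, 119, 107 and 145 CPM to 242, 266, 239.7 and 259.9 CPM in WT libraries and from 109, 144, 111 and 134 CPM to 226, 256, 247 and 254 CPM in KO libraries. The media again did not overlap, with log2 fold changes of 1.06 ± 0.10 (SE, adjusted p = 1.59e-07) in WT and 0.98 ± 0.10 (SE, adjusted p = 3.03e-07) in KO cells. Both genes stood highest among the DMEM libraries in the same ones, WT library 4 and KO libraries 2 and 4. Of the summed macrophage and dendritic markers, those libraries held 2126, 2857 and 2013 CPM, and the other 5 DMEM libraries 1008 to 2133 CPM. Lyz2 made up most of this sum. Without it the 3 libraries held 652, 868 and 656 CPM, above the other 5 at 329 to 591 CPM, so the libraries highest in H2-D1 and H2-K1 in DMEM were also the highest in the rest of this list. The part of those cells in the class I level was not tested.

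**Figure D2:**
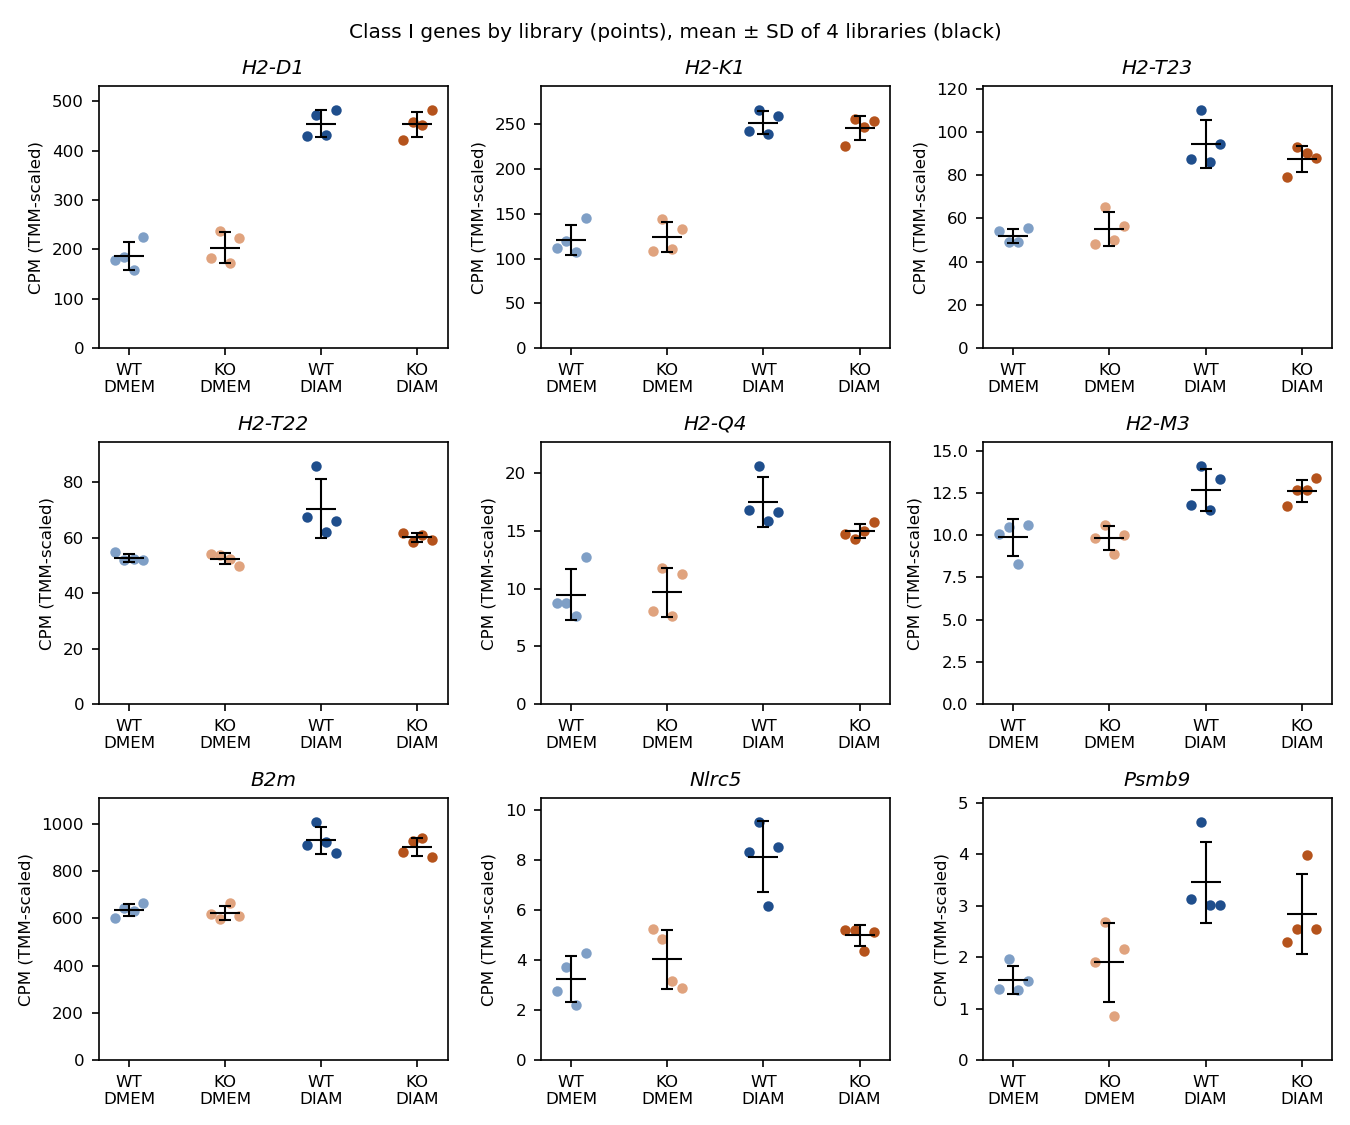
Level in TMM-scaled CPM (y axes, each from 0) of 9 class I genes in the 4 groups (x axes), with a point per library and the mean ± SD of 4 libraries in black. H2-D1, H2-K1, H2-T23, H2-M3 and B2m separate by medium in both genotypes, whereas Nlrc5 is at 6.18 to 9.53 CPM in WT libraries in DIAM and at 4.38 to 5.22 CPM in KO libraries in DIAM.

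Among the nonclassical heavy chains, H2-T23, which encodes Qa-1, a ligand of inhibitory receptors on natural killer cells, rose from 54.0, 49.3, 48.9 and 55.6 CPM to 87.3, 110.3, 86.2 and 94.6 CPM in WT libraries. KO libraries went from 48.2, 65.5, 49.9 and 56.7 to 79.1, 93.0, 90.2 and 88.1 CPM. The log2 fold changes were 0.87 ± 0.10 (SE, adjusted p = 1.44e-06) and 0.67 ± 0.10 (SE, adjusted p = 1.80e-05), with no overlap of the media in either genotype.

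H2-Q4 rose by a log2 fold change of 0.89 ± 0.16 (SE, adjusted p = 1.75e-04) in WT and 0.63 ± 0.16 (SE, adjusted p = 0.00274) in KO cells. H2-M3, which presents N-formylated peptides, rose from 9.86 ± 1.09 CPM (SD, n = 4) to 12.7 ± 1.25 CPM in WT cells and from 9.81 ± 0.721 to 12.6 ± 0.670 CPM in KO cells. Its log2 fold change was 0.36 ± 0.09 (SE, adjusted p = 0.00363) and 0.36 ± 0.09 (SE, adjusted p = 0.00329). For both genes the media did not overlap.

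H2-T22, a ligand of gamma-delta T cells, had the smallest change among the 9 heavy chains called in KO cells. WT libraries had 54.9, 51.8, 52.5 and 51.9 CPM in DMEM and 67.6, 86.0, 62.1 and 66.2 CPM in DIAM. KO libraries had 54.0, 53.8, 52.3 and 49.9 CPM in DMEM and 61.8, 58.5, 60.9 and 59.3 CPM in DIAM. The log2 fold change was 0.42 ± 0.08 (SE, adjusted p = 2.11e-04) in WT and 0.20 ± 0.08 (SE, adjusted p = 0.0348) in KO cells. The call in KO cells was lost without 1 of 5 single libraries: the adjusted p was 0.0609 and 0.0909 without KO libraries 3 and 4 in DMEM, and 0.0739, 0.0664 and 0.0512 without KO libraries 1, 3 and 4 in DIAM. With quantile normalization it was 0.285.

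The Q region genes H2-Q6 and H2-Q7, which encode Qa-2, and H2-Q1 were low in DMEM. They passed the filter only through libraries in DIAM, so that their rise is partly set by it. H2-Q7 was at 0.393, 0.361, 0.465 and 0.692 CPM in WT libraries in DMEM and 2.08, 2.13, 1.23 and 2.09 CPM in DIAM, where library 3 stood below the others. KO libraries went from 0.340, 0.671, 0.341 and 0.908 to 1.16, 1.26, 1.42 and 1.97 CPM. Its log2 fold change was 1.97 ± 0.33 (SE, adjusted p = 8.84e-05) in WT and 1.35 ± 0.32 (SE, adjusted p = 0.00185) in KO cells, and the media did not overlap. For H2-Q6 the log2 fold changes were 1.94 ± 0.43 (SE, adjusted p = 0.00123) and 1.75 ± 0.44 (SE, adjusted p = 0.00277), and for H2-Q1 1.48 ± 0.29 (SE, adjusted p = 3.66e-04) and 1.67 ± 0.29 (SE, adjusted p = 1.01e-04). By limma on log2(CPM + 1), a scale that understates the change of low genes, all 3 were called in both genotypes at smaller values in WT and KO cells, 0.96 and 0.66 for H2-Q7, 0.89 and 0.72 for H2-Q6 and 0.70 and 0.81 for H2-Q1. H2-Q6 and H2-Q7 are close copies, and how the submitters' quantification split reads between them was not tested.

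H2-K2 and H2-T10 were near 1 CPM, and H2-K2 passed the filter only through libraries in DIAM. H2-K2 was called in WT cells, where the media overlapped, at 0.93 ± 0.30 (SE, adjusted p = 0.0139), or 0.42 by limma on log2(CPM + 1), and not in KO cells, at -0.04 ± 0.29 (SE, adjusted p = 0.911). H2-T10, annotated in GENCODE M21 as a polymorphic pseudogene, was not called at 0.45 ± 0.25 (SE, adjusted p = 0.135) and 0.05 ± 0.24 (SE, adjusted p = 0.862). The pseudogene H2-T11-ps was not called either, at 0.33 ± 0.20 (SE, adjusted p = 0.178) and 0.08 ± 0.20 (SE, adjusted p = 0.759).

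Summed over all 18 heavy chain genes, the level was 435 ± 50.5 CPM (SD, n = 4) in WT and 460.0 ± 59.4 CPM in KO cells in DMEM. In DIAM it was 913 ± 61.2 CPM in WT cells and 883 ± 43.1 CPM in KO cells. H2-D1 supplied 42.7 ± 1.48% of the heavy chain counts in WT cells in DMEM and 49.8 ± 1.31% in DIAM, and 44.2 ± 1.38% and 51.3 ± 0.663% in KO cells. The share of H2-T22 went from 12.25 ± 1.461% to 7.70 ± 0.773% in WT cells and from 11.6 ± 1.60% to 6.83 ± 0.498% in KO cells. In both genotypes H2-D1 made up more of the heavy chain counts in DIAM and H2-T22 less; these shares were not tested.

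Beta-2-microglobulin, the light chain that every class I heavy chain needs, rose with them. B2m was at 602, 644, 629.6 and 664 CPM in WT libraries in DMEM and 912, 1009, 922 and 878 CPM in DIAM. KO libraries had 617, 596, 665 and 609 CPM in DMEM and 883, 928, 939 and 859 CPM in DIAM. The media did not overlap; the rise was 1.47-fold in WT and 1.45-fold in KO cells, and the log2 fold change was 0.55 ± 0.06 (SE, adjusted p = 4.98e-07) in WT and 0.54 ± 0.06 (SE, adjusted p = 5.26e-07) in KO cells. The count ratio of H2-D1 to B2m, taken within each library, went from 0.293 ± 0.0362 to 0.490 ± 0.0401 in WT cells (SD, n = 4) and from 0.330 ± 0.0638 to 0.503 ± 0.0399 in KO cells.

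The transporter and loading genes did not share that rise. Tap1, a subunit of the peptide transporter, fell in both genotypes. It went from 22.8, 21.7, 22.03 and 25.5 CPM to 18.3, 17.3, 16.5 and 19.7 CPM in WT libraries and from 24.6, 25.8, 22.02 and 22.6 to 18.5, 17.8, 17.5 and 20.7 CPM in KO libraries, without overlap. The log2 fold change was -0.36 ± 0.08 (SE, adjusted p = 0.00103) and -0.35 ± 0.08 (SE, adjusted p = 0.00101).

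Tap2, the other transporter subunit, was not called. It was at 39.8 ± 3.58 and 41.4 ± 3.98 CPM in WT cells and at 40.7 ± 1.45 and 45.3 ± 3.40 CPM in KO cells, in DMEM and DIAM in that order, with log2 fold changes of 0.06 ± 0.08 (SE, adjusted p = 0.548) and 0.16 ± 0.08 (SE, adjusted p = 0.0900). Tapbp, which encodes tapasin, was called lower in WT cells at -0.17 ± 0.07 (SE, adjusted p = 0.0469), though the media overlapped, and not called in KO cells at -0.09 ± 0.07 (SE, adjusted p = 0.286). The Tapbp call in WT cells ended when WT library 2, 3 or 4 in DMEM was left out (adjusted p = 0.118, 0.0535 and 0.126). It also ended without WT library 1, 2 or 3 in DIAM (adjusted p = 0.122, 0.0704 and 0.0875).

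The 3 immunoproteasome subunits, which replace catalytic subunits of the constitutive proteasome, rose in WT cells and were not called in KO cells. Psmb9 was at 1.39, 1.96, 1.35 and 1.53 CPM in WT libraries in DMEM and 3.14, 4.64, 3.02 and 3.02 CPM in DIAM, where library 2 was highest. KO libraries had 1.91, 2.68, 0.853 and 2.15 CPM in DMEM and 2.30, 2.55, 3.99 and 2.54 CPM in DIAM, and the media overlapped. The log2 fold change was 1.15 ± 0.28 (SE, adjusted p = 0.00260) in WT and 0.58 ± 0.28 (SE, adjusted p = 0.0847) in KO cells.

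Psmb8 separated by medium in WT cells, from 6.93, 7.92, 6.997 and 8.57 to 10.7, 11.97, 10.7 and 11.4 CPM. Its KO libraries overlapped, at 7.35, 9.01, 7.95 and 10.4 CPM in DMEM and 8.65, 9.97, 9.88 and 10.7 CPM in DIAM. The log2 fold changes were 0.56 ± 0.11 (SE, adjusted p = 3.95e-04) and 0.18 ± 0.11 (SE, adjusted p = 0.174). Psmb10 was called in WT cells at 0.27 ± 0.11 (SE, adjusted p = 0.0432), where the media overlapped, and not in KO cells at 0.13 ± 0.11 (SE, adjusted p = 0.304). The Psmb10 call ended without WT library 2, 3 or 4 in DMEM (adjusted p = 0.130, 0.126 and 0.102) or WT library 2, 3 or 4 in DIAM (adjusted p = 0.0927, 0.0698 and 0.0974).

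These genes sit beside each other. In the RefSeq order of coding genes on chromosome 17, H2-DMb1, Psmb9, Tap1, Psmb8 and Tap2 follow one another, and the promoter windows of Tap1 and Psmb9, read on opposite strands, share 275 of their 300 bases. Along this stretch in WT cells H2-DMb1 fell, Psmb9 rose, Tap1 fell, Psmb8 rose and Tap2 was not called. In KO cells H2-DMb1 and Tap1 fell and the other 3 were not called. The count ratio of Psmb9 to Tap1 within a library went from 0.0681 ± 0.0147 to 0.194 ± 0.0507 in WT cells and from 0.0789 ± 0.0290 to 0.155 ± 0.05004 in KO cells (SD, n = 4). The kit does not mark strand, so reads of overlapping transcripts cannot be told apart.

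**Figure D3:**
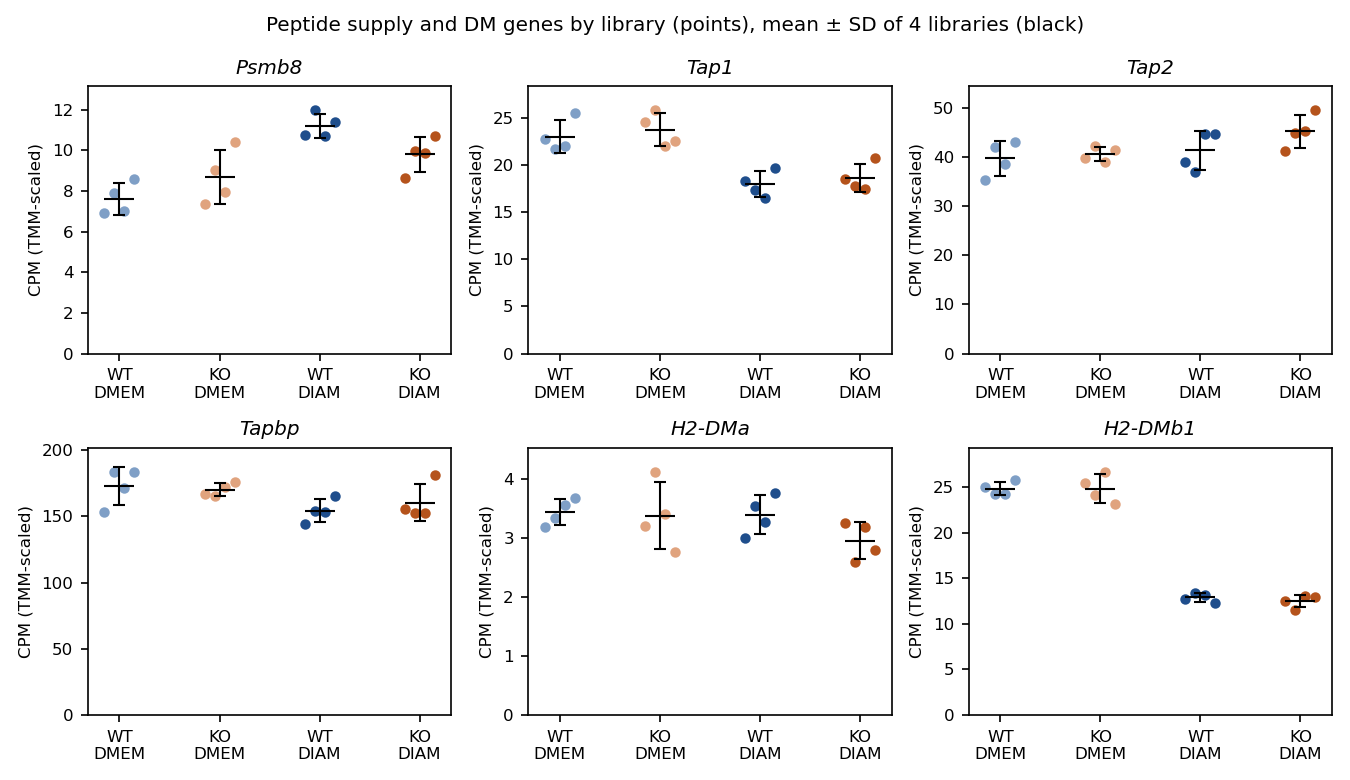
Level in TMM-scaled CPM (y axes, each from 0) of Psmb8, the TAP and tapasin genes and the DM genes in the 4 groups (x axes), with a point per library and the mean ± SD of 4 libraries in black. Tap1 and H2-DMb1 are lower in DIAM in both genotypes, Psmb8 is higher in DIAM in WT cells, and Tap2 and H2-DMa overlap between media.

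Nlrc5, the transactivator of class I genes, rose in WT cells. It was at 2.75, 3.71, 2.22 and 4.28 CPM in WT libraries in DMEM and 8.33, 9.53, 6.18 and 8.51 CPM in DIAM, a 2.52-fold rise with no overlap and a log2 fold change of 1.33 ± 0.22 (SE, adjusted p = 8.45e-05). KO libraries had 5.23, 4.85, 3.17 and 2.87 CPM in DMEM and 5.22, 5.22, 4.38 and 5.14 CPM in DIAM, which overlapped, with a log2 fold change of 0.31 ± 0.22 (SE, adjusted p = 0.233). In DIAM all 4 KO libraries lay below all 4 WT libraries, while in DMEM the genotypes overlapped. H2-D1 and H2-K1 rose in KO cells, where the Nlrc5 estimate was positive but not called. A link between Nlrc5 and the heavy chain levels was not tested.

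On the class II side, H2-DMb1 was lower in DIAM, H2-DMa was not called, and the other 3 genes were below the filter. H2-DMb1, the beta chain of the peptide exchange factor DM, was at 25.0, 24.3, 24.3 and 25.8 CPM in WT libraries in DMEM and 12.7, 13.4, 13.2 and 12.3 CPM in DIAM. KO libraries had 25.5, 24.1, 26.7 and 23.1 CPM in DMEM and 12.5, 11.6, 13.1 and 12.9 CPM in DIAM. The spread within groups was small, the media stood far apart, and the log2 fold change was -0.94 ± 0.06 (SE, adjusted p = 1.89e-09) in WT and -0.99 ± 0.06 (SE, adjusted p = 9.39e-10) in KO cells. Its partner chain H2-DMa was not called, at 3.45 ± 0.220 and 3.40 ± 0.333 CPM in WT cells (SD, n = 4) and 3.38 ± 0.565 and 2.96 ± 0.317 CPM in KO cells, with log2 fold changes of -0.02 ± 0.13 (SE, adjusted p = 0.913) and -0.19 ± 0.14 (SE, adjusted p = 0.235).

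Cd74, the invariant chain that guards the class II groove, and the class II chains H2-Ab1 and H2-Eb1 stayed below the filter. Cd74 had 20, 18, 14 and 12 counts in WT libraries in DMEM and 0, 6, 2 and 3 in DIAM. KO libraries had 21, 24, 12 and 25 counts in DMEM and 5, 2, 0 and 5 in DIAM, so the media did not overlap in either genotype. A count of 0 allows up to 3 counts, which is 0.0820 CPM in WT library 1 and 0.0821 CPM in KO library 3 in DIAM; such limits cover counting error only. With no filter on low counts, the log2 fold change of Cd74 was -2.38 ± 0.62 (SE, adjusted p = 0.00474) in WT and -2.67 ± 0.60 (SE, adjusted p = 0.00138) in KO cells by edgeR, beside 19.7% and 22.2% of all 20581 genes called lower in that fit.

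H2-Ab1 had 27, 14, 19 and 16 counts in WT libraries in DMEM, 15, 14, 15 and 12 in WT libraries in DIAM, 15, 16, 16 and 15 in KO libraries in DMEM and 26, 12, 10 and 9 in KO libraries in DIAM. H2-Eb1 had 10 to 32 counts per library in DMEM and 4 to 29 in DIAM. With no filter neither was called in either genotype, with H2-Ab1 at -0.30 ± 0.33 (SE, adjusted p = 0.519) and -0.06 ± 0.33 (SE, adjusted p = 0.899) and H2-Eb1 at -0.76 ± 0.43 (SE, adjusted p = 0.183) and 0.22 ± 0.42 (SE, adjusted p = 0.716), in WT and KO cells.

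**Figure D4:**
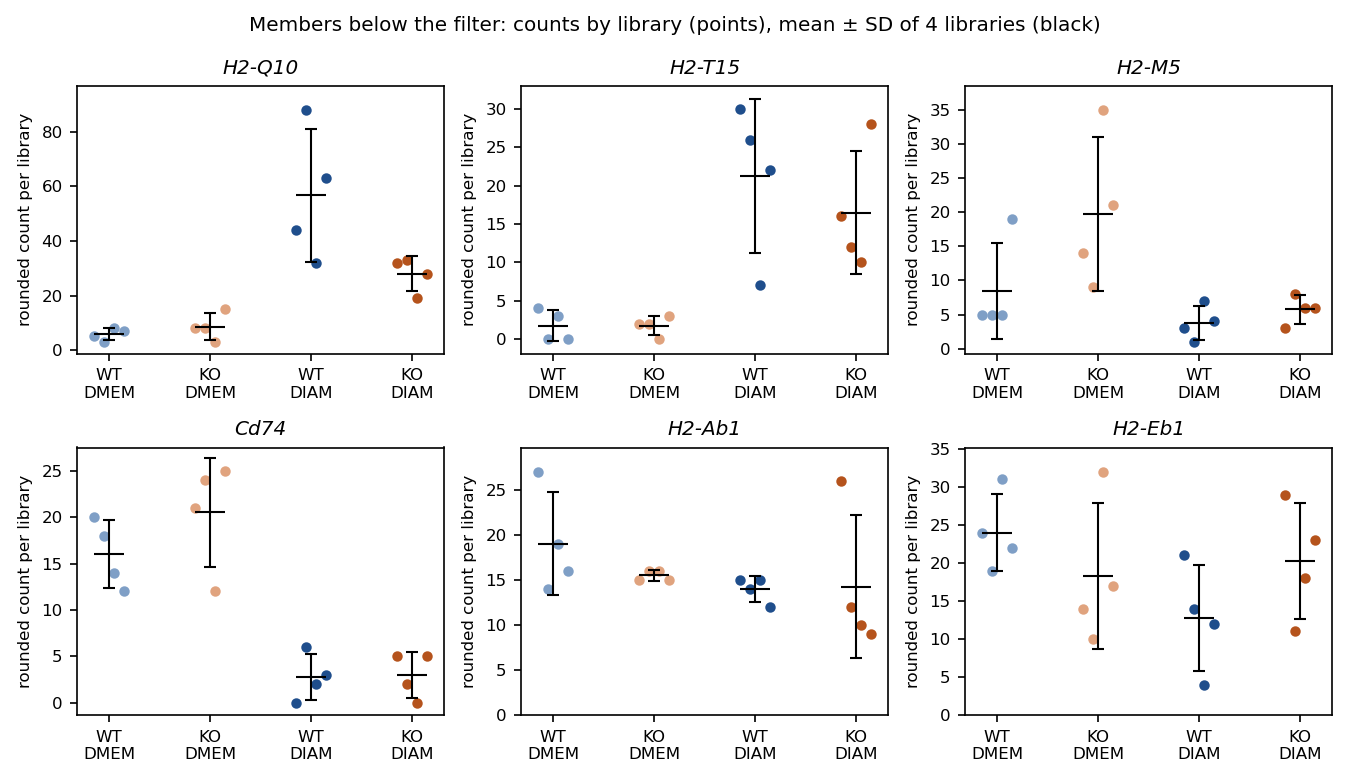
Rounded counts per library (y axes) of 6 genes that did not reach the filter, in the 4 groups (x axes), with a point per library and the mean ± SD of 4 libraries in black. Cd74 has 12 to 25 counts in DMEM libraries and 0 to 6 in DIAM libraries, H2-Q10 has 3 to 15 in DMEM and 19 to 88 in DIAM, and H2-Ab1 and H2-Eb1 overlap between media.

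The other 7 genes below the filter were heavy chains. With no filter, 3 of them were called higher in DIAM in WT cells and 2 in KO cells, beside 20.8% and 22.5% of all 20581 genes. H2-Q10, known as a secreted class I molecule, had 5, 3, 8 and 7 counts in WT libraries in DMEM and 44, 88, 32 and 63 in DIAM. KO libraries had 8, 8, 3 and 15 counts in DMEM and 32, 33, 19 and 28 in DIAM. With no filter, the log2 fold change was 3.40 ± 0.41 (SE, adjusted p = 2.63e-06) in WT and 1.76 ± 0.40 (SE, adjusted p = 0.00135) in KO cells. H2-T15 had 0 to 4 counts per library in DMEM and 7 to 30 in DIAM, and was called in both genotypes at 3.66 ± 0.72 (SE, adjusted p = 4.82e-04) and 3.20 ± 0.73 (SE, adjusted p = 0.00150).

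H2-T5 had 0 to 4 counts in DMEM and 3 to 10 in DIAM and was called in WT cells, at 2.67 ± 0.78 (SE, adjusted p = 0.0109), but not in KO cells, at 1.66 ± 0.69 (SE, adjusted p = 0.0590). H2-M5 went the other way, with 5 to 35 counts in DMEM and 1 to 8 in DIAM, and was called lower in KO cells at -1.69 ± 0.56 (SE, adjusted p = 0.0203) but not in WT cells at -1.03 ± 0.63 (SE, adjusted p = 0.213). H2-Q5, H2-T24 and H2-T9 were not called in either genotype without the filter.

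The other question was whether the genotype mattered. In DMEM none of the 22 genes differed between KO and WT cells in edgeR's test, beside 0.0% of all genes called; 1 of the 22 (H2-K2) had an unadjusted p under 0.05, and DESeq2 and limma also called 0, beside 0.00703% and 0.0% of all genes. In DIAM edgeR again called 0 of the 22, beside 3.43% of all genes called higher and 4.95% called lower in KO cells. There, 2 genes had an unadjusted p under 0.05, Nlrc5 and H2-T22, and both were lower in KO cells. DESeq2 called both lower, beside 7.13% of all genes, at adjusted p-values of 0.0199 for Nlrc5 and 0.0475 for H2-T22. By limma, Nlrc5 alone was called, beside 5.39% of all genes. The authors' deposited table calls Nlrc5 (adjusted p = 3.75e-04) and H2-Q10 (adjusted p = 0.0370) lower, beside 6.3% of all genes in it. H2-Q10, below the filter here, was at -1.004 ± 0.347 (SE, log2 fold change, adjusted p = 0.109) by edgeR with no filter.

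Nlrc5 in DIAM was 1.63-fold lower in KO than in WT cells, a log2 fold change of -0.71 ± 0.21 (SE, adjusted p = 0.0532) by edgeR. The adjusted p passed the threshold when WT library 3 in DIAM, the lowest of its group, was left out, at 0.0328, and ran from 3.75e-04 to 0.179 over all alternatives. H2-T22 was at -0.23 ± 0.08 (SE, adjusted p = 0.0703). Genotypes did not overlap in DIAM for 3 of the 22 genes, H2-Q4, H2-T22 and Nlrc5, all lower in KO cells, beside 16.4% of all genes. For H2-D1, H2-K1 and B2m the KO to WT log2 fold change in DIAM was -0.0045 ± 0.11, -0.04 ± 0.10 and -0.04 ± 0.06 (SE), each smaller than its error.

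**Figure D5:**
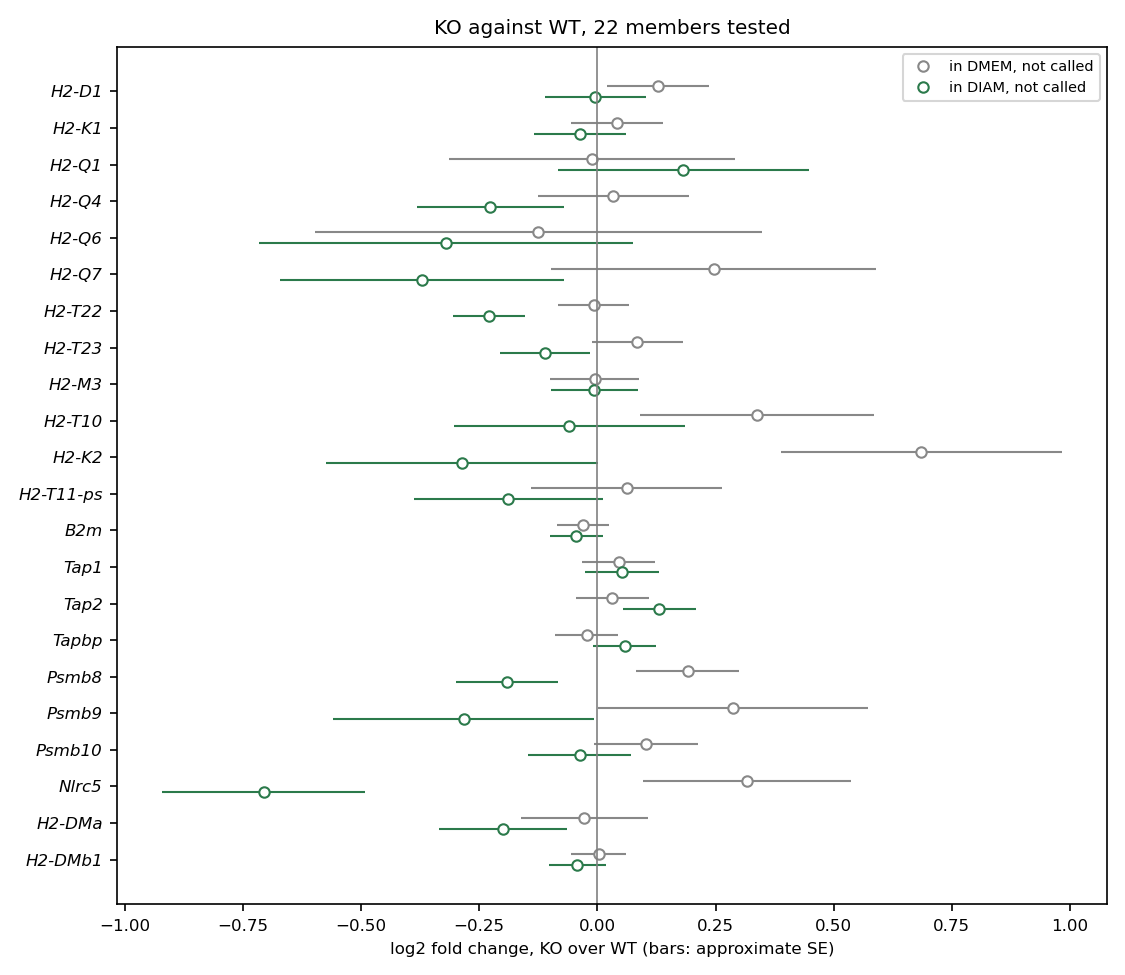
Log2 fold change of KO over WT cells (x axis) for the 22 genes tested (y axis), in DMEM (grey) and DIAM (green), with approximate SE as bars; open points mark an adjusted p of 0.05 or more. No point is filled, and Nlrc5 in DIAM lies furthest left at -0.71.

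The interaction term, which compares the size of the medium effect in KO and WT cells, was called for 0 of the 22 genes by edgeR, beside 0.0% of all genes. DESeq2 and limma also called 0 of the 22, beside 1.58% and 0.0% of all genes, and 3 had an unadjusted p under 0.05. These were Nlrc5 at -1.02 ± 0.31 (SE, adjusted p = 0.181), Psmb8 at -0.38 ± 0.15 (SE, adjusted p = 0.253) and H2-K2 at -0.97 ± 0.41 (SE, adjusted p = 0.277), each with a lower estimate in KO cells. For Nlrc5 the adjusted p of the interaction ran from 0.0595 to 0.340 over the alternatives. The estimate was negative for 18 of the 22 genes, with a median of -0.18 beside 0.00 over all genes. The genes include related copies, so these signs are not independent, and the set was not tested. H2-D1, H2-K1 and B2m were at -0.13 ± 0.15, -0.08 ± 0.14 and -0.01 ± 0.08 (SE), each smaller than its error. Psmb9 was at -0.57 ± 0.40 (SE, adjusted p = 0.499) and Psmb10 at -0.14 ± 0.15 (SE, adjusted p = 0.692). So the calls of the immunoproteasome, Nlrc5 and H2-K2 in WT cells alone were not shown to differ between genotypes.

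Genes of the surrounding pathway, from lists drawn up by function, gave a mixed picture. The medians of the 8 lists ran from -0.22 to 0.26 in WT cells and from -0.52 to 0.26 in KO cells (log2 fold change), beside -0.01 and -0.02 over all genes. Of all genes, 27.6% rose and 27.5% fell in WT cells, and 29.8% and 30.8% in KO cells; a count in a list near these shares is no result about that list. Of 7 peptide loading helpers of the endoplasmic reticulum, 6 fell and 0 rose in DIAM in each genotype. Canx, the chaperone calnexin, went from 720.1 ± 38.8 to 529 ± 11.3 CPM in WT cells, with a log2 fold change of -0.44 (edgeR adjusted p = 6.70e-07), and by -0.44 in KO cells (adjusted p = 5.24e-07). Erap1, the peptide trimming protease, was the member not called. Of 8 constitutive proteasome and activator genes, 2 rose (Psme3 and Psme4) and 1 fell (Psmb6) in each genotype. Psmb5, whose place Psmb8 takes, was not called at -0.12 (adjusted p = 0.165) in WT cells, and Psmb6, whose place Psmb9 takes, fell by 0.24 on the log2 scale (adjusted p = 0.00357).

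Class I-like genes outside the H2 family moved both ways, with 4 of 8 higher and 3 lower in each genotype. Cd1d1, which presents lipids, rose from 4.50 ± 0.556 to 15.7 ± 1.93 CPM in WT cells, a log2 fold change of 1.80 (adjusted p = 5.75e-09), and by 1.96 in KO cells (adjusted p = 1.60e-09). Procr, Fcgrt and Hfe also rose. Mr1, which presents vitamin B metabolites, and the stress ligands Raet1d and Raet1e fell; Mr1 had log2 fold changes of -0.46 (adjusted p = 8.38e-06) and -0.44 (adjusted p = 1.09e-05).

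Of 14 genes in the interferon gamma list, 5 rose and 2 fell in WT cells, beside 27.6% and 27.5% of all genes. In KO cells 5 rose and 7 fell, beside 29.8% and 30.8%. The list also holds Ifnar1, Ifnar2, Stat2 and Irf9, genes of the type I interferon response, so its counts are not of the gamma route alone. Stat2 and Ifnar1 were among the 7 that fell in KO cells. Ifngr1, Jak1 and Irf2 were among those that rose in both. The receptor chains moved apart: Ifngr1 changed by 0.84 (adjusted p = 9.77e-09) and Ifngr2 by -0.82 (adjusted p = 1.18e-07) on the log2 scale in WT cells. In KO cells the values were 1.23 (adjusted p = 1.02e-10) and -0.85 (adjusted p = 6.59e-08). Irf1, an activator of class I promoters, was not called in WT cells at -0.04 (adjusted p = 0.763) and fell in KO cells at -0.41 (adjusted p = 9.73e-04).

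The counts in the next 4 lists stand beside the same shares of all genes. Among 7 NF-kB genes, 3 rose and 0 fell in WT cells, and 4 rose and 1 fell in KO cells. The inhibitor Nfkbia rose by a log2 fold change of 1.37 in WT (edgeR adjusted p = 1.32e-09) and 1.61 in KO cells (edgeR adjusted p = 1.82e-10). Tnfaip3 rose by 1.31 (edgeR adjusted p = 4.35e-06) and 1.80 (edgeR adjusted p = 9.68e-08), in WT and KO cells. Nfkb1 also rose in both genotypes, while Rela rose and Nfkb2 fell in KO cells alone. For the class II route, 3 of 8 lysosomal processing genes rose and 0 fell in WT cells, and 2 rose and 2 fell in KO cells. Of 7 class II enhanceosome genes, 2 rose and 2 fell in WT cells, and 2 rose and 1 fell in KO cells. Of 7 co-stimulation genes, 1 rose (Cd86) and 3 fell in WT cells, and 1 rose and 4 fell in KO cells.

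Between genotypes in DIAM, 3 of the 66 genes tested in these lists were higher in KO cells and 6 lower, beside 3.43% and 4.95% of all genes. Higher were Cd1d1, Ifngr1 and Nfkbia, at log2 fold changes of 0.47, 0.31 and 0.32 (edgeR adjusted p = 0.0280, 0.0120 and 0.0309). Lower in KO cells were Pdia3, Ifi30, Cd63, Socs3, Ifnar1 and Cd80, from -0.21 for Pdia3 to -1.19 for Cd80. These calls depend on the model over all 4 groups. When edgeR was fitted to the DIAM groups alone, 0 of all 14217 genes were called higher and 0 lower. Without KO library 2 in DIAM, 43 genes were called higher and 135 lower, against 487 and 704 in the model used. No gene of the lists was called between genotypes in DMEM or for the interaction.

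Of 16 macrophage and dendritic markers, 4 rose and 3 fell in WT cells, beside 27.6% and 27.5% of all genes, and 0 rose and 7 fell in KO cells, beside 29.8% and 30.8%. The members went different ways. In WT cells Cd68, Laptm5, C1qa and C1qc rose at 0.73, 0.81, 0.65 and 0.90 on the log2 scale (edgeR adjusted p = 0.0143, 0.0112, 0.0386 and 0.00799). In KO cells they were not called. Adgre1, Ptprc, Itgam and Tyrobp fell in KO cells, at -0.73, -1.03, -1.18 and -0.62 (edgeR adjusted p = 0.0159, 0.00609, 0.00631 and 0.0451). In WT cells their estimates were also negative but not called. Csf1r, C1qb, Lyz2 and Fcer1g were not called in either genotype. The dendritic factor Zbtb46 was not called, at 0.13 and 0.13 (adjusted p = 0.368 and 0.340). The integrin Itgax, found on dendritic cells, fell in both genotypes, at -4.94 (adjusted p = 1.06e-06) and -5.89 (adjusted p = 1.16e-07) on the log2 scale, as did Cd52 and Cd14. Summed over the list, the level was 2133, 1551, 1008 and 2126 CPM in WT libraries in DMEM and 1727, 1975, 1167 and 2017 CPM in DIAM, which overlapped. KO libraries held 1943, 2857, 1326 and 2013 CPM in DMEM and 1426, 1884, 1832 and 1758 CPM in DIAM. Without Lyz2 the WT libraries held 591, 480.2, 329 and 652 CPM in DMEM and 700, 755, 472 and 809 CPM in DIAM, and the KO libraries 550.4, 868, 407 and 656 and 525, 686, 706 and 667 CPM; the media overlapped in both genotypes. Of the B and T cell markers sought, Cd4 alone was in the table, and it fell in both genotypes. The part of these cells in the class I and class II values was not tested.

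Of 6 fibroblast markers, 5 rose and 1 fell in each genotype, and their sum went from 877 to 1166 CPM in DMEM libraries to 2137 to 2794 CPM in DIAM libraries. Of 8 endothelial markers, 4 rose in WT cells, and 5 rose and 1 fell in KO cells. The endothelial sums were 37.8 to 63.0 CPM in DMEM and 78.9 to 129 CPM in DIAM. All 5 adipocyte markers rose in both genotypes, and their sum went from 55.1 to 95.7 CPM in DMEM libraries to 1328 to 2889 CPM in DIAM libraries. Of 4 Schwann cell markers tested, 3 rose and 1 fell in WT cells, and 0 rose and 1 fell in KO cells. The counts in these lists stand beside 27.6% of all genes higher and 27.5% lower in WT cells, and 29.8% and 30.8% in KO cells. Schwann cell markers summed to 169.5, 262, 106 and 103 CPM in WT libraries and 15.6, 38.8, 62.1 and 62.1 CPM in KO libraries in DIAM, so that the genotypes did not overlap there, as for Nlrc5. No gene of these 4 lists was at 0 in a whole group, and their part in the class I and Nlrc5 values was not tested.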

How the data were processed

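Total RNA of cultured aortic smooth muscle cells was sequenced with an unstranded TruSeq kit after ribosomal RNA depletion, per the labels' protocols. The submitters' processing notes name build GRCm39 and the tools Salmon 1.9.0, FastQC, R 4.4.2 and DESeq2 1.46.0. The labels call the deposited library columns TPM, but they sum to 37221192 to 47626331 and are not whole, so the values the authors deposited were treated as estimated counts. The authors' deposited log2 fold changes and adjusted p-values cover 4 of the 5 comparisons, and their deposited mean signal per gene was not used; DIAM against DMEM in KO cells rests on the counts alone. The plan named edgeR's test for counts, and limma on log2 values if the values were TPM. As the values were treated as counts, the count test was used in spite of the labels' word.

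Counts were rounded, and genes with at least 1 CPM in at least 4 of 16 libraries were kept (14217 genes, at least 99.83% of each library's counts). edgeR 4.0.16 in R 4.3.3 fitted 1 quasi-likelihood model over the 4 groups (TMM scaling, robust, 12 residual degrees of freedom). Two-sided p-values were adjusted by Benjamini-Hochberg over all genes tested, and a gene was called at an adjusted p under 0.05. CPM is TMM-scaled and not divided by gene length, so levels are compared within a gene only. The SE was back-calculated from the F statistic. The fit was tested on simulated counts. Replicate libraries differed beyond sampling noise in all 24 pairs within groups. Alternatives were median-ratio and quantile scaling, no filter, a filter at 5 CPM, a replicate block, fits of only the groups compared, limma 3.58.1 on log2(CPM + 1), DESeq2 1.42.0, the authors' adjusted p-values, stricter thresholds, and leaving out each library.

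Every gene of the rule is named. From the pathway lists, at most 4 genes of smallest p per list and comparison are named with values, and others by name to account for a count. A gene of the interferon gamma list is counted and otherwise not reported here. The members and the lists were chosen with earlier results of these data known. Promoter windows are RefSeq's, of build GRCm38.p6, another build than the counts, so no gene coordinates are given.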

Additional observations from a re-analysis of the deposited data

Results flagged for a closer look

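In 8 of 88 sets of 4 libraries (22 genes in 4 groups), 1 library stood apart from the other 3 by more than the critical ratio of Dixon's test at the 95% level; chance alone flags about 1 set in 20. Among WT libraries in DIAM, H2-Q7 was lowest in library 3 at 1.23 CPM, with the others at 2.08 to 2.13 CPM. H2-T10 was highest in WT library 2 in DIAM at 1.92 CPM, with the others at 0.974 to 1.12 CPM. The same library had the highest Psmb9, at 4.64 CPM against 3.02 to 3.14 CPM. Psmb10 was highest in WT library 1 in DMEM at 14.5 CPM, the others being at 10.5 to 10.9 CPM.

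In KO libraries in DIAM, Nlrc5 was lowest in library 3 at 4.38 CPM, beside 5.14 to 5.22 CPM. Psmb9 was highest in that library at 3.99 CPM, beside 2.30 to 2.55 CPM. Tapbp was highest in KO library 4 at 181 CPM, with the others at 152 to 156 CPM, and Psmb10 in KO library 2 at 16.6 CPM, with the others at 12.4 to 13.2 CPM. What sets these libraries apart was not tested.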

How the results depend on the processing

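Of the 30 calls of a gene in a comparison, 21 held under every alternative run, and none of the 550 alternative values of these calls changed sign against a call. The exceptions were Psmb10 (13 alternatives) and Tapbp (11) in WT cells, H2-T22 in KO cells (8), and, with 1 alternative each, H2-K2 in WT cells at an adjusted p under 0.01, and H2-T22 in WT cells and H2-M3 and Tap1 in both genotypes when an absolute log2 fold change of 0.5 was also asked for. That last threshold left 1 gene lower in DIAM in WT cells and 1 in KO cells, H2-DMb1; with no filter on low counts, 4 were lower in KO cells. Lower in KO than in WT cells in DIAM were 0 genes in the model used, 1 with the replicate block, 1 with limma, 2 with DESeq2, 2 by the authors' deposited adjusted p-values, and 0 to 2 when 1 library was left out, the 2 without WT library 3 in DIAM. The cause was not tested.

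The replicate numbers were not taken as pairs, since no label says what a number shares and same-numbered libraries did not all correlate above 0.1 in their deviations. Across media within a genotype the correlations were -0.056 to 0.284, with 5 of 8 over 0.1 and 4 of 8 libraries matching their own number best. Between genotypes they were -0.188 to 0.083, with 2 of 8 matching best. The block otherwise left 14 genes higher and 3 lower in DIAM in WT cells, and 10 and 2 in KO cells. Quantile normalization shifted the split of all genes called in DIAM to 3269 higher and 4874 lower in WT cells, and 3649 and 5078 in KO cells, from 3929 and 3910, and 4243 and 4380. Genes under about 1 CPM rest on few counts, and heavy chain copies may share reads.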
